A study of Mus musculus with 14 samples.

Results

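Siglech, Tcf4, Bst2, Ly6d, Irf8, Runx2, Spib, Cd209a, Flt3 and Cst3 are genes known from plasmacytoid dendritic cells (pDCs) and other dendritic cells, and their signals are described here in sorted mouse regulatory T cells (Tregs). These 10 genes, of 21902 gene symbols measured, were chosen by name after Siglech had been seen to be higher in effector Tregs (eTregs) labelled Atg14 knockout (KO) than in control eTregs. Each of the 10 had 1 transcript cluster, the set of probes that reads 1 gene, on the array. The comparison of the KO and control eTregs therefore chose the genes and is given below as a description without a test.

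pDCs are blood and lymphoid tissue cells that sense viral nucleic acids and release large amounts of type I interferon, and they arise from Flt3-expressing progenitors under the transcription factor Tcf4, with Spib, Irf8 and Runx2 acting alongside it. Siglech and Bst2 are surface markers of mouse pDCs, and Ly6d marks lymphoid and pDC progenitors, whereas Cd209a and Cst3 are better known from conventional dendritic cells and macrophages. Several of these genes are not specific to dendritic cells. Runx2, Bst2 and Cst3 are also expressed in T cells or more widely, Bst2 is induced by interferon, and Spib, Tcf4, Irf8 and Ly6d are also expressed in B cells.

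RNA from Tregs was hybridised to 14 Clariom S mouse arrays to ask what loss of Atg14, a subunit of the autophagy complex of the lipid kinase Vps34, changes within Tregs. Marrow from CD45.2+ Foxp3CreAtg14+/fl donors (control) or Foxp3CreAtg14fl/fl donors (KO) was mixed in equal parts with CD45.1+ wild-type marrow and given to sublethally irradiated Rag1-/- mice, which were left to reconstitute for 6 to 8 weeks. Central Tregs (cTregs, CD44 low) and eTregs (CD44 high) were sorted as CD4+ Foxp3-YFP+ cells, and there were 4 arrays of control cTregs, 3 of KO cTregs, 4 of control eTregs and 3 of KO eTregs. The labels do not say whether arrays of a group came from separate chimeras. The paper counts the samples of these arrays as mixed chimera mice, and its counts match the arrays per group. Read so, each array of a group came from a separate chimera, and P values measure the spread between such arrays. All donors carried Foxp3Cre on a C57BL/6 background and the controls had also 1 floxed Atg14 allele. Cre was driven by Foxp3, the lineage factor of Tregs, and other donor-derived cells keep their floxed Atg14 alleles unless they have expressed Foxp3. The paper states that some experiments used KO mice with an Atg14 allele already deleted. Whether the donors here were among these is not given. Rag1-/- hosts lack T and B cells of their own but keep dendritic cells and macrophages. The cells came from spleen according to the study's methods and from spleen and lymph nodes according to the series description. The methods give an age of 6 to 20 weeks for adult mice of this genotype, and the labels give none. Arrays are written by group and replicate number, as KO eTreg 1.

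The arrays fit the labelled cell type and subset but not, at Atg14, the labelled genotype. Foxp3 (12.73 to 13.12), Cd4 (12.46 to 12.75) and Cd3e (13.05 to 13.25), which define CD4 Tregs, had high log2 signals on all 14 arrays. In controls Cd44 was 1.61 higher in eTregs (limma adjusted P = 0.000121). KO eTreg 1 lay closer to the cTregs in Cd44 than the control eTregs did, at 10.60 against 10.95 to 11.35. Atg14 was not lower in the arrays labelled KO, at 9.24 to 9.33 against 8.64 to 9.26 in cTregs and 9.004 to 9.32 against 8.64 to 9.01 in eTregs. The paper reports that it checked Atg14 deletion by quantitative PCR in sorted Tregs of Foxp3CreAtg14fl/fl mice, a measurement separate from these arrays. Which part of Atg14 the probes read was not analysed here, so KO names the label alone, and all directions below are drawn between labels.

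Promoter sequence is shown for Siglech and Bst2, both surface markers of pDCs, which were among the 4 genes whose KO eTreg arrays all lay above the control eTreg arrays and for which a window was at hand. The windows are the 250 bases before a start site in a RefSeq table on the mouse assembly GRCm38.p6. For Siglech, Runx2, Spib and 1 of the 2 Irf8 windows that site lies inside the gene's RefSeq interval. Those shown are printed 5′ to 3′ along the gene, with capitals for matches on either strand to 5 motifs of factors in this group. These motifs were the E-boxes CACCTG and CAGCTG (bound by Tcf4 and related factors), TGTGGT (Runx), the interferon response core GAAANNGAA and the Ets-IRF core GGAANNGAA (Spib or PU.1 with Irf8). The Siglech window is chr7:55767934-55768183 on the plus strand, and its last bases, from position 55768154 on, lie inside the RefSeq gene. The Bst2 window is chr8:71537473-71537722 on the minus strand and ends where the gene begins.
Siglech: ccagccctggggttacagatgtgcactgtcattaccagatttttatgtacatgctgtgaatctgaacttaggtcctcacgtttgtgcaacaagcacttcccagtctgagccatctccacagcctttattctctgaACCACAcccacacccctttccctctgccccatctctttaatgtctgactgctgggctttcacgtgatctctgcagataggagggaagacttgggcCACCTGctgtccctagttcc
Bst2: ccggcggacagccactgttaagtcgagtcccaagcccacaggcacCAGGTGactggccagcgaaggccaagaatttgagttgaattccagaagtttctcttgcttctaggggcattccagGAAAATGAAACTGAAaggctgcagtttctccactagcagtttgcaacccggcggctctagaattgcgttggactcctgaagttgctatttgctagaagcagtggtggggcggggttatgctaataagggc
Distances are counted back from the end of the window. In the Siglech window CACCTG begins 20 bases before that end, which is inside the RefSeq gene, and the Runx motif, read on the opposite strand, 115 bases before it. In the Bst2 window 2 overlapping interferon response cores begin 130 and 124 bases before the end, and CACCTG lies 205 bases before it on the opposite strand. Of the 8 genes with a window here, Irf8 had CACCTG in 1 of its 2 windows, which lies inside the gene. Runx2 had the Runx motif, Cd209a the Ets-IRF core and Cst3 CAGCTG, while the windows of Spib and Flt3 held none of the 5. Of all 32851 windows, 17.2% held CACCTG, 13% CAGCTG, 14% TGTGGT, 7.13% the interferon response core and 6.99% the Ets-IRF core. A match is a string of letters and says nothing about whether a factor binds.

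Signal height differed widely among the 10 genes in relation to the array's background. All 10 lay above the median of the 23 background control probe sets (6.00 to 6.30 per array) on all 14 arrays. Bst2, Runx2 and Cst3 also lay above the highest background probe set (9.51 to 10.1) on all 14, and Tcf4 did on 12. Siglech exceeded that mark on 3 arrays, Ly6d on 6, Cd209a on 2 and Irf8 on 1, whereas Spib and Flt3 never did. Values are log2 signals and are compared for 1 gene between arrays, never between genes.

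**Figure D1:**
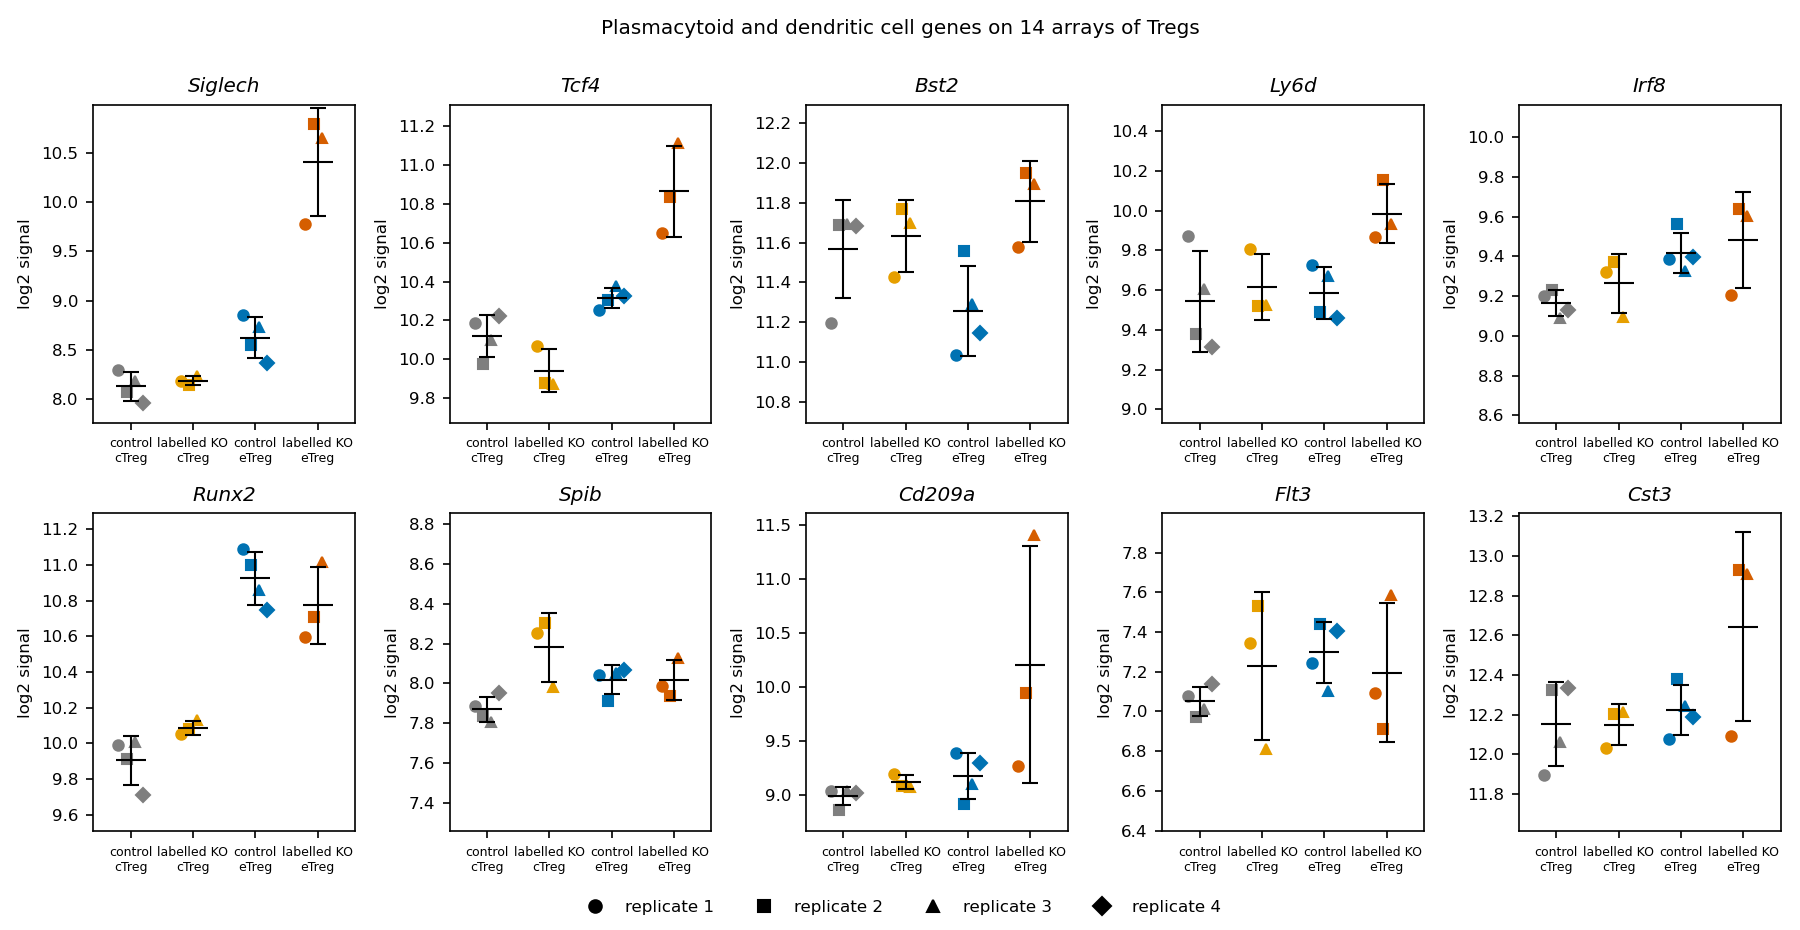
Log2 signal (y axis) of each of the 10 genes on 14 arrays, by group (x axis), with the replicate number as symbol, the group mean as a long line and its SD (n = 4 or n = 3) as whiskers. Siglech and Tcf4 are highest on the 3 KO eTreg arrays, Cd209a and Cst3 are high on KO eTreg 2 and 3 and not on KO eTreg 1, and Runx2 separates eTregs from cTregs.

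Siglech, a sialic acid-binding immunoglobulin-like lectin that marks mouse pDCs, showed the widest range between groups. Its log2 signal read 8.29, 8.07, 8.18 and 7.96 in control cTregs and 8.19, 8.14 and 8.23 in KO cTregs. It read 8.86, 8.55, 8.73 and 8.37 in control eTregs and 9.78, 10.79 and 10.65 in KO eTregs. Thus both cTreg groups overlapped, control eTregs lay above both, and KO eTregs lay above all others with a gap of 0.92 to the highest control eTreg. The mean of KO eTregs (10.41 ± 0.55, SD, n = 3) was 1.78 above that of control eTregs (8.63 ± 0.21, SD, n = 4), or 3.44-fold, and 2.22 above that of KO cTregs (8.19 ± 0.046, SD, n = 3). Of the KO eTregs, array 1 was lowest, at 1.15 above the control eTreg mean, against 2.17 and 2.02 for arrays 2 and 3. In bulk RNA a few cells with much of a transcript and many cells with little of it cannot be told apart.

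Surface markers Bst2 and Ly6d were also higher on every KO eTreg array than on every control eTreg array, though by less. Bst2, the interferon-inducible membrane protein tetherin, read 11.58, 11.95 and 11.89 in KO eTregs and 11.04, 11.56, 11.29 and 11.14 in control eTregs, a difference of 0.55. The gap between the closest arrays was 0.016, so that this separation is narrow. In cTregs Bst2 read 11.20, 11.69, 11.69 and 11.68 in controls and 11.43, 11.77 and 11.70 in KO, and both of these groups overlapped with the KO eTregs, which were 0.17 above the KO cTregs. Ly6d, a GPI-anchored surface protein, read 9.87, 10.15 and 9.93 in KO eTregs against 9.72, 9.49, 9.67 and 9.46 in control eTregs, a difference of 0.40. Its cTreg values were 9.87, 9.38, 9.60 and 9.31 in controls and 9.81, 9.52 and 9.52 in KO, and thus control cTreg 1 was as high as KO eTreg 1. For both genes the other 3 groups overlapped one another in the order of their means.

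Among the transcription factors, Tcf4 differed most between KO and control eTregs and Runx2 between the subsets. Tcf4, the E protein on which pDC development depends, read 10.65, 10.83 and 11.11 in KO eTregs, 10.25, 10.31, 10.38 and 10.33 in control eTregs, 10.19, 9.98, 10.10 and 10.22 in control cTregs and 10.07, 9.88 and 9.87 in KO cTregs. The order of its groups was KO cTregs, control cTregs, control eTregs and KO eTregs, with overlap only between both cTreg groups. KO eTregs were 0.55 above control eTregs and 0.92 above KO cTregs. Runx2, which guides pDC egress from marrow and is also expressed in activated T cells, read 10.59, 10.71 and 11.01 in KO eTregs and 11.09, 10.998, 10.86 and 10.75 in control eTregs. These overlapped and differed by -0.15, and both lay above the cTregs, which read 9.99, 9.92, 10.01 and 9.71 in controls and 10.05, 10.08 and 10.13 in KO.

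Irf8 and Spib, which act in pDCs, B cells and other myeloid cells, showed no separation of KO from control eTregs. Irf8 read 9.20, 9.64 and 9.61 in KO eTregs and 9.39, 9.56, 9.33 and 9.40 in control eTregs, so that KO eTreg 1 lay below all controls and arrays 2 and 3 above them. The cTreg values of Irf8 were 9.20, 9.23, 9.09 and 9.13 in controls and 9.32, 9.37 and 9.09 in KO. Spib read 7.99, 7.94 and 8.13 in KO eTregs and 8.04, 7.91, 8.05 and 8.07 in control eTregs, with means that differed by -0.0016. It was highest in KO cTregs, at 8.25, 8.30 and 7.98, against 7.89, 7.83, 7.81 and 7.95 in control cTregs.

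Cd209a, Cst3 and Flt3, known from conventional dendritic cells and their progenitors, did not separate the groups of eTregs either. Cd209a, a C-type lectin, read 9.26, 9.94 and 11.41 in KO eTregs and 9.38, 8.91, 9.10 and 9.29 in control eTregs. Its mean difference of 1.03 therefore came from arrays 2 and 3, which were 0.77 and 2.24 above the control mean, whereas array 1 was 0.092 above it and inside the control range. Cst3, which encodes the protease inhibitor cystatin C, read 12.09, 12.93 and 12.91 in KO eTregs and 12.08, 12.38, 12.25 and 12.19 in control eTregs. Here too array 1 lay inside the control range, 0.13 below the control mean, while arrays 2 and 3 lay 0.71 and 0.68 above it. Flt3, the receptor of the cytokine that drives dendritic cell development, read 7.09, 6.91 and 7.58 in KO eTregs and 7.24, 7.44, 7.10 and 7.40 in control eTregs, and overlapped among all groups. In cTregs Cd209a ranged from 8.86 to 9.19, Cst3 from 11.90 to 12.33 and Flt3 from 6.81 to 7.53.

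Over the 10 genes, 7 were higher in KO eTregs than in control eTregs, with a median difference of 0.41, beside 44.2% higher and a median of -0.022 over all 22203 transcript clusters. In 4 of the 10 (Siglech, Tcf4, Bst2 and Ly6d) every KO eTreg array lay above every control eTreg array, as in 3.01% of all transcript clusters. Because Siglech was named from this comparison, nothing is read from that count. Against KO cTregs, which share the KO eTreg arrays, the median was 0.43, and 5 genes (Siglech, Tcf4, Ly6d, Runx2 and Cd209a) had no overlap and higher values in KO eTregs, against 6.46% of all transcript clusters. For no member did the KO eTregs all lie below either group.

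Genes of macrophages were high on the same arrays as part of these differences. Of 18 monocyte and macrophage genes, all 18 were above the control eTreg mean on KO eTreg 2 and 3 (medians 1.66 and 1.72), and 2 of 18 were on KO eTreg 1 (median -0.41). Their summed linear signal was 31962 and 31656 on KO eTreg 2 and 3 and 6359 on KO eTreg 1, against 7412 to 10449 in control eTregs, 4871 to 5152 in control cTregs and 5270 to 5796 in KO cTregs. None of the 18 was below the background median throughout any group. The highest differences of means in this list were for Mrc1 (1.59), Csf1r (1.55), Spic (1.46) and Lyz2 (1.28), and for all 4 KO eTreg 1 lay below every control eTreg. On KO eTreg 1, where most of these genes were lower than in controls, Siglech, Tcf4, Bst2 and Ly6d were above every control eTreg. Their single-array differences from the control mean were 1.15, 0.33, 0.32 and 0.28. Of the 18 genes, 1 (Adgre1) was likewise above every control eTreg on all KO eTreg arrays, beside 3.01% of all transcript clusters. Folr2, Adgre1 and Fcgr3, which are known from macrophages, were picked because they followed Siglech over all arrays, KO eTreg 1 among them. On KO eTreg 1 they lay 0.37, 0.093 and 0.19 above the highest control eTreg. Because of how they were picked, nothing is read from this. Cst3, Cd209a and Irf8 were above every control eTreg only on KO eTreg 2 and 3, where the macrophage genes were also high. The part of the macrophage genes in these values was not tested.

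**Figure D2:**
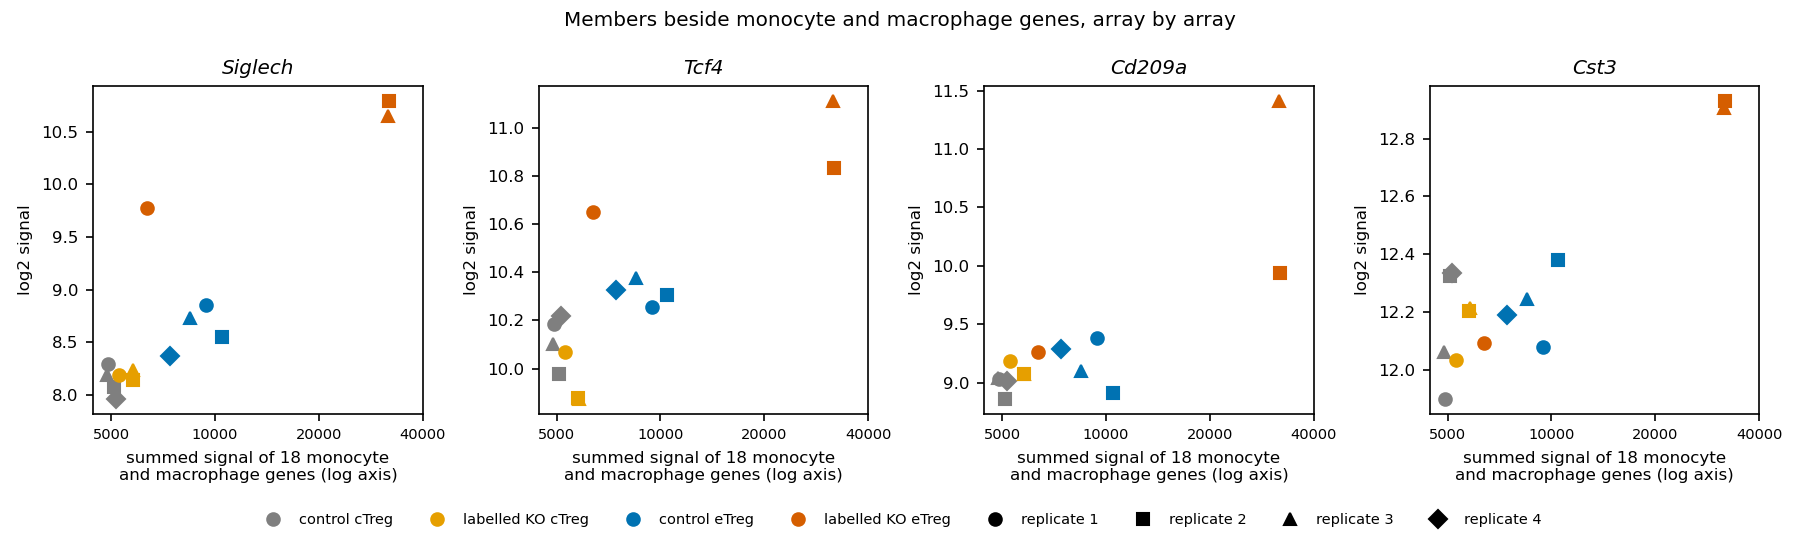
Log2 signal of Siglech, Tcf4, Cd209a and Cst3 (y axes) against the summed linear signal of 18 monocyte and macrophage genes (x axis, log scale), 1 point per array, coloured by group and shaped by replicate. KO eTreg 1, at a summed signal of 6359, is high in Siglech and Tcf4 and within the control range in Cd209a and Cst3, whereas KO eTreg 2 and 3, at 31962 and 31656, are high in all 4.

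Of 20 other genes known from pDCs, 14 were higher in KO eTregs than in control eTregs (median 0.42), beside 44.2% of all transcript clusters. In 2, Cd209d and Klk1, every KO array lay above every control array, as in 3.01% of all transcript clusters. Cd209d, a C-type lectin, read 7.65, 9.31 and 9.74 in KO eTregs and 6.54, 7.20, 7.16 and 6.98 in control eTregs, a difference of 1.93. Plac8 (1.46), Mpeg1 (1.35), a pore-forming protein abundant in macrophages, and Zeb2 (0.83), a transcription factor, had the next highest differences, and in each KO eTreg 1 lay within the control range. By single array the median of the 20 genes was 0.041, 0.40 and 0.34 above the control eTreg mean on KO eTreg 1, 2 and 3, whereas that of the 10 genes was 0.030, 0.54 and 0.49. Tlr7, a sensor by which pDCs detect viral RNA, read 10.46, 10.73 and 10.18 in KO eTregs against 9.35 to 10.58 in control eTregs, and overlapped.

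Lists of further cell types followed arrays 2 and 3 in part. Conventional dendritic cell genes (19 matched of 20) had array medians of -0.099, 0.79 and 1.11 on KO eTreg 1, 2 and 3, with the highest differences of means for Clec4a4 (1.21), Adam23 (1.14), Fscn1 (1.12) and Clec12a (1.04). Genes of major histocompatibility complex class II presentation, by which dendritic cells, macrophages and B cells display antigen, had -0.20, 1.24 and 1.61. B cell genes had -0.0044, 0.22 and 0.22. Of these 12, Cd79a alone was higher on all KO arrays than on all control arrays, as were 3.01% of all transcript clusters. The 16 interferon-stimulated genes had the opposite order, at 0.39, 0.17 and 0.079, and T cell and Treg identity genes stayed near 0, at -0.087, 0.0055 and -0.031. Plasma cell, neutrophil and erythroid genes had array medians between -0.21 and 0.11, and CD8 T and NK cell genes 0.23, 0.28 and 0.61.

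**Figure D3:**
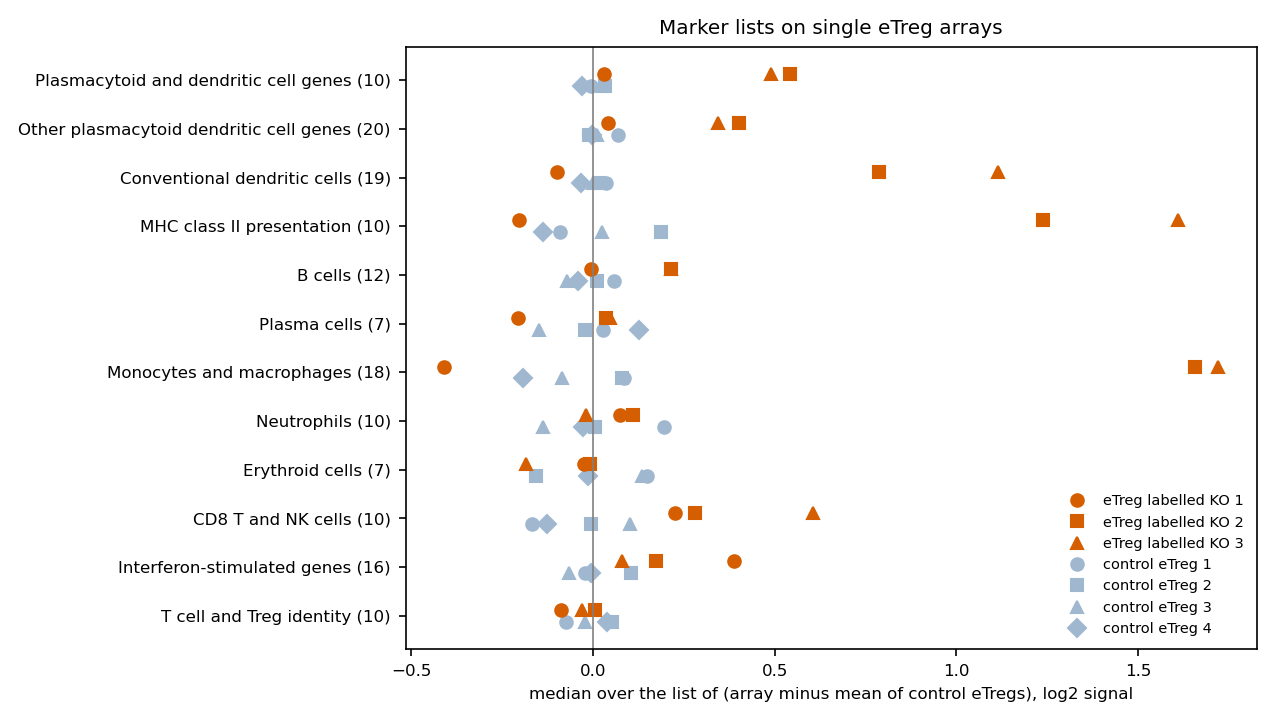
Median over each list (number of matched genes in parentheses) of the log2 difference of 1 eTreg array from the control eTreg mean (x axis), for 3 KO (orange) and 4 control (blue) eTreg arrays, with the replicate number as symbol. Macrophage, conventional dendritic cell and class II lists are high on KO eTreg 2 and 3 and at or below 0 on KO eTreg 1.

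The difference between eTregs and cTregs of control donors was tested, since it did not choose the genes, although it shares the control eTreg arrays with the comparison that did. With a call set at an absolute log2 difference of at least 0.5 and an adjusted P below 0.05, 1 of the 10 genes was called, beside 3.06% of all transcript clusters. That gene was Runx2, which was 1.02 higher in eTregs (SE 0.11, 95% interval 0.78 to 1.26, limma adjusted P = 5.82e-05), or 2.03-fold, with a gap of 0.74 between the closest arrays. Siglech was 0.50 higher (95% interval 0.12 to 0.87) with an unadjusted P of 0.0128 and a limma adjusted P of 0.183, and its 4 control eTreg arrays all lay above the 4 control cTreg arrays. Irf8 was 0.25 higher (95% interval 0.021 to 0.49, limma adjusted P = 0.326) and Bst2 differed by -0.31 (95% interval -0.62 to -0.00033, limma adjusted P = 0.388), so neither passed. Before adjustment the P of these 4 genes was below 0.05, as it was for 12.8% of all transcript clusters.

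Every control eTreg array was above every control cTreg array in 4 of the 10 genes (Siglech, Tcf4, Irf8 and Runx2), beside 6.12% of all transcript clusters. Of the 10 genes, 9 were higher in control eTregs, with a median difference of 0.19, against 50.7% and 0.0026 over all transcript clusters. The difference in Tcf4 was 0.20 (95% interval -0.030 to 0.42, limma adjusted P = 0.499), with a gap of 0.034 between the closest arrays. Those of Ly6d, Spib, Cd209a, Flt3 and Cst3 lay between 0.043 and 0.25, with intervals that include 0. The 18 macrophage genes were also all higher in control eTregs, with a median of 0.74 and 1 of them called, Slc40a1 (1.67, limma adjusted P = 0.030), an iron exporter. Their part in the subset differences of Siglech and Irf8 was not tested.

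Of the 20 other pDC genes 3, with different directions, were called between the control subsets, beside 3.06% of all transcript clusters. Mpeg1 was 1.94 higher in eTregs (limma adjusted P = 0.00719), whereas Tlr7 fell by 1.104 (limma adjusted P = 0.0195). Atp1b1, the beta subunit of the sodium pump, fell by 1.42 (limma adjusted P = 5.82e-05). In the conventional dendritic cell list Cd83, which is also induced in activated T cells, was the only gene called, at 0.67 higher (limma adjusted P = 0.000273). Of the interferon-stimulated genes Oas2 and Usp18 fell by 1.02 and 0.82 (limma adjusted P = 0.0144 and 0.0060), the direction Bst2 had without a call. The remaining lists apart from that of macrophages, with 7 to 12 matched genes each, held 10 called genes, to be set beside the same 3.06%. Prdm1, a transcription factor of plasma cells and of eTregs, was 2.55 higher in eTregs (limma adjusted P = 0.00047) and the B cell receptor inhibitor Cd22 0.89 higher (limma adjusted P = 0.00324). Of the cytotoxic cell list Gzmb (2.24), Klrb1c (2.20) and Nkg7 (1.43) were higher and Prf1 and Cd8b1 fell by 1.30 and 0.62. Ikzf2 and Ctla4, both Treg genes, were 0.71 and 0.58 higher, and the class II chaperone gene H2-Ob fell by 0.53 (limma adjusted P = 0.0462). H2-Ob went against its list. Of the 10 class II presentation genes, 9 were higher in control eTregs (median 1.01), beside 50.7% of all transcript clusters, and none of those 9 was called.

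**Figure D4:**
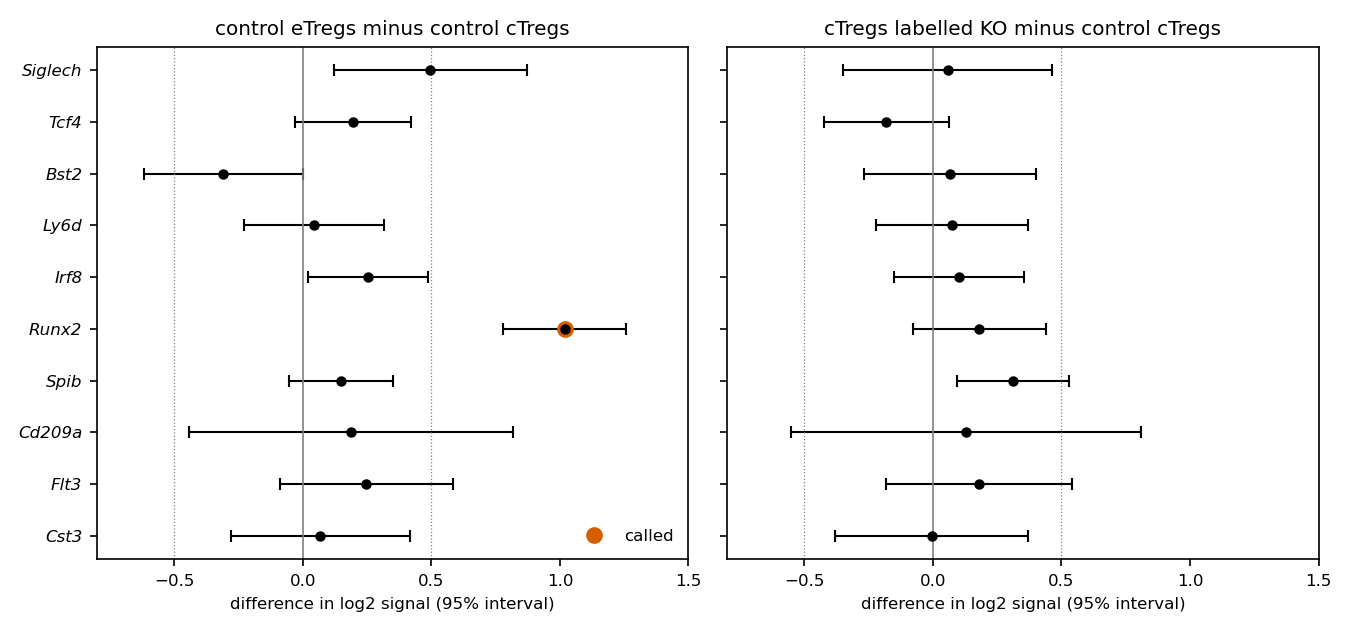
Difference in log2 signal (x axis) with its 95% interval for each of the 10 genes between control eTregs and control cTregs (left) and between KO and control cTregs (right); dotted lines mark 0.5 in either direction. Runx2 in the left panel, ringed in orange, is the 1 gene called.

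In cTregs, whose arrays had no part in choosing the genes, none of the 10 was called between KO and control (0 of 10, beside 0.0450% of all transcript clusters). In these cells Siglech differed by 0.058 (95% interval -0.35 to 0.46) and Tcf4 by -0.18 (95% interval -0.42 to 0.062). Spib was 0.31 higher in KO cTregs (95% interval 0.093 to 0.53) with an unadjusted P of 0.00816, the only one of 10 below 0.05 beside 4.01% of all transcript clusters. After adjustment limma gave 0.9999 for Spib and for each other member. Spib, Runx2 and Cd209a had every KO array above every control array in cTregs, which held for 2.70% of all transcript clusters, with gaps of 0.033, 0.043 and 0.037 between the closest arrays. The 10 genes had a median difference of 0.087, beside 0.016 over all transcript clusters. In none of the other 11 lists was a gene called between KO and control cTregs.

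Set side by side, the KO minus control difference of Siglech was 1.78 in eTregs and 0.058 in cTregs, that of Cd209a 1.03 and 0.13, that of Bst2 0.55 and 0.067 and that of Cst3 0.42 and -0.0045. For Tcf4 the values were 0.55 and -0.18. For Runx2 they were -0.15 and 0.18, and for Spib -0.0016 and 0.31. The contrast between subsets was not tested, since the KO eTreg arrays had led to Siglech being chosen.

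The genes whose signal followed that of Siglech most closely over the 14 arrays were Folr2 (Pearson r = 0.950), Adgre1 (0.946), Havcr1 (0.944), Fcgr3 (0.940) and Pilrb1 (0.939), of which Folr2, Adgre1 and Fcgr3 are known from macrophages. Without the 3 KO eTreg arrays, over 11 arrays, r was 0.660, 0.698, 0.062, 0.747 and 0.856 in the same order. These values are descriptions over arrays that share group means. The closest symbols to the others were Gzmk for Tcf4 (0.936), Clta for Bst2 (0.934), Rab11fip5 for Ly6d (0.867), Hpgd for Irf8 (0.939), Rnf43 for Runx2 (0.967), Gm10654 for Spib (0.874), Themis2 for Cd209a (0.961), Gabrb1 for Flt3 (0.805) and P2ry12 for Cst3 (0.971). Among the 45 pairs of the 10 genes r ran from -0.23 to 0.92 and exceeded 0.7 in 9. The highest was between Siglech and Tcf4 (0.92), which was 0.61 without the KO eTregs.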

How the data were processed

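Tregs were profiled on 14 Clariom S mouse arrays. The authors summarised the probes by robust multi-array average (background correction, quantile normalisation over all arrays, median polish) in Expression Console 1.1, per the labels, and the deposited values are log2 signals per transcript cluster. Quantile normalisation gives all arrays nearly the same distribution, so that a shift of all genes could not be seen. Array medians were 8.77 to 8.90, and precision is limited by how many arrays there were. Of 28846 entries, 6640 control probe sets and 3 without a symbol were left out of the tests. A genome build of the identifiers is not given in the sources used here.

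Groups came from the labels. A single model with 4 group means was fitted to 22203 transcript clusters without a filter on signal by limma 3.58.1 in R 4.3.3 (package data.table, version 1.17.8), with 10 residual degrees of freedom and 5.65 from eBayes moderation. Tests were two-sided with Benjamini-Hochberg adjustment over all transcript clusters. The 2 contrasts tested were control eTregs minus control cTregs and KO minus control cTregs. The 2 contrasts with KO eTregs were described, because they or their arrays led to the choice of Siglech. The fit was tested on simulated data.

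All 10 genes are named. The values of 1 gene used to check the sort are not reported here. From 11 other lists (macrophage, dendritic cell and further markers) the called genes are named, up to 5 a list, and in described contrasts up to 4 with the highest differences could be named. By Pearson correlation 5 symbols are named for Siglech and 1 for each other gene. The genes and lists were chosen with earlier results of these data known. Sums of a list are of linear signals. Promoter windows are from RefSeq (GRCm38.p6), of which 8 of the 10 genes had one used here.

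Alternatives were other scalings (medians or 75th percentiles subtracted), each array left out, a filter at the 60th percentile, only the groups compared, a variance trend with robust moderation, array weights, a replicate block and the study's threshold on unadjusted P. Each KO eTreg array alone was added after the data were seen.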

Additional observations from a re-analysis of the deposited data

Results flagged for a closer look

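The KO minus control difference of Tcf4 was positive in eTregs, with all 3 KO eTreg arrays above the control eTregs, and negative in cTregs. In cTregs its 95% interval of -0.42 to 0.062 held both signs and the KO and control arrays overlapped. A direction in cTregs was therefore not established. The difference in eTregs minus that in cTregs was 0.73 (0.55 and -0.18). It was not tested, since the KO eTreg arrays led to the choice of Siglech.

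In 3 groups of 4 arrays, 1 array lay far from the others for its group's range, which chance alone gives in about 1 of 20 groups. For each of the 10 genes the groups of 4 arrays are control cTregs and control eTregs. Bst2 read 11.20 on control cTreg 1, where the other control cTregs read 11.68 to 11.69. Spib read 7.91 on control eTreg 2 and Cd209a 8.86 on control cTreg 2, each the lowest of its group.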

How the results depend on the processing

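The count of genes called between control subsets (1, Runx2) and between KO and control cTregs (0) was the same under every alternative tried, and Runx2 ranged from 0.94 with array weights to 1.08 with control eTreg 4 left out. Siglech between control subsets had an adjusted P of 0.0158 without KO eTreg 1, 0.0309 with only both groups in the fit and 0.0470 with array weights, but its difference of 0.497, 0.497 and 0.433 missed the required 0.5 there. With 1 array left out the difference of Siglech between KO and control eTregs was 1.59 (without KO eTreg 2) to 2.09 (without KO eTreg 1), and from KO eTreg 1 alone it was 1.15. Against KO cTregs it was 2.03 to 2.53, and 1.59 from KO eTreg 1 alone. From KO eTreg 1 alone the differences of Cst3 and Irf8 from control eTregs were -0.13 and -0.21, against 0.42 and 0.064 from all 3 arrays. In the tested contrasts signs turned for Ly6d, Cst3, Bst2 and Siglech, each at a difference under 0.1. Between control subsets Ly6d was -0.0032 with array medians subtracted and -0.033 to 0.15 with 1 array left out, and Cst3 was -0.017 to 0.13. Between KO and control cTregs Cst3 was 0.014 with 75th percentiles subtracted, 0.021 with array weights and -0.090 to 0.056 with 1 array left out, Bst2 was -0.056 to 0.17 and Ly6d -0.022 to 0.18. With a replicate block Siglech in cTregs was -0.012 and Cst3 0.020, and the counts called were 1 and 0. Arrays with the same number deviated together weakly (r from 0.010 to 0.30 over the pairs of groups). Between cTregs and eTregs the own number was the best matched in 3 of 4 control and 3 of 3 KO pairs. Between genotypes it was so in 2 of 3 pairs in each subset. The labels state no pairing, so the main fit did not pair the arrays and ignores any such link. A figure legend of the paper gives 1 number of chimeras per genotype for both subsets, so both may come from the same mice. The replicate block is the alternative that uses the array numbers. The filter left out genes of low mean signal, which then gave no value. Background correction could not be varied from the values used here, and Spib and Flt3 lay below the highest background probe set on every array.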
